A study of Mus musculus with 12 samples.

Results

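Fatty acid binding proteins are small cytoplasmic proteins, each of which holds long-chain fatty acids or related lipids in a barrel-shaped pocket. The 6 family members described here were Fabp1, Fabp2, Fabp4, Fabp5, Fabp6 and Fabp7. They were taken as the genes named by a probeset with 1 gene in the platform annotation, out of 18193 genes so named. A probeset is a group of short probes on the array that reads 1 transcript, and 11 of the 34945 probesets with 1 gene belonged to the family. Where a gene had several probesets, the brightest over the 12 arrays stood for it. A level is the log2 of the deposited intensity, and genes with a mean level of at least 4.73 (the median of all probesets) were tested. Of the 6 members, 5 were among the 11899 genes tested, and Fabp6 was below this limit.

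The RNA came from the livers of male C57BL/6 mice from a commercial breeder, kept under 12 h of light and 12 h of dark with free access to food and water. The 6 mice of the penicillin group drank water with low-dose penicillin from after weaning, and the 6 control mice received no antibiotic. Livers were taken after 7 weeks of intervention, and each mouse gave 1 array. The sources used here give no dose, age in days, cage or hour of collection. Mice of 1 cage share water and would not be independent, as the tests assume. The study's title names the gut microbiome and early adiposity. The comparison asks how penicillin treatment relates to liver RNA levels.

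The members are named after the tissue where each is abundant. Fabp1 is the liver form, the main fatty acid carrier of hepatocytes, and is a classical target of PPAR-alpha, the nuclear receptor that senses fatty acids. Fabp2 is the intestinal form of absorptive gut cells. Fabp4 is the form of adipocytes, macrophages and capillary endothelium, and Fabp5 the form of epidermis, also made by macrophages and endothelium. Fabp6 binds bile acids in ileal cells, and Fabp7 is the form of the brain and of glia. By gene order in RefSeq, Fabp5, Fabp9, Fabp4 and Fabp12 lie near each other on chromosome 3. Fabp2 lies elsewhere on that chromosome, Fabp1 on chromosome 6, Fabp7 on chromosome 10 and Fabp6 on chromosome 11.

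The promoters of the liver and intestinal forms are shown because these members are set against each other below. Each line holds the 250 bases before the gene start, 5′ to 3′ on the gene's strand, from RefSeq (build GRCm38.p6). The Fabp1 window is chr6:71199629-71199878 and the Fabp2 window chr3:122894822-122895071, both on the plus strand.
Fabp1: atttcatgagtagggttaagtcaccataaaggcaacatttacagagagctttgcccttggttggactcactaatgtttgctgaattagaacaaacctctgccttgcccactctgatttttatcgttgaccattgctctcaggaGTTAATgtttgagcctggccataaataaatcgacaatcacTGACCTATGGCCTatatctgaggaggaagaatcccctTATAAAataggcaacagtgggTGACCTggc
Fabp2: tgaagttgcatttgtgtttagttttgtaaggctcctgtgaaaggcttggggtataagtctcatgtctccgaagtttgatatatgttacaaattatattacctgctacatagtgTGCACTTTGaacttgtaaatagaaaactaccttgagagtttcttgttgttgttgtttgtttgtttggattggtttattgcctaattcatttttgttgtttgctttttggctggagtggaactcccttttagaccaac
Capitals mark matches on either strand to TATAAA (the TATA box), AGGTCA (the core element of nuclear receptor sites), a direct repeat of AGGNCA with 1 base between the copies (the kind of site PPAR and HNF4 bind), CAAAGTNCA (an HNF4 site) and GTTAAT (part of an HNF1 site). Fabp1 held TATAAA at -30 to -25 from the gene start, GTTAAT at -107 to -102, and TGACCT, the reverse of AGGTCA, at -67 to -62 and at -9 to -4. The first TGACCT is part of a match to the direct repeat, TGACCTATGGCCT, at -67 to -55. The Fabp2 window held 1 match, TGCACTTTG at -137 to -129, the reverse of CAAAGTNCA. Of 32851 promoter windows of this length, 12.4% held TATAAA, 14.0% AGGTCA, 6.43% GTTAAT, 1.19% CAAAGTNCA and 0.338% the direct repeat. A match describes letters in the window and was not tested as a binding site.

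The arrays were alike as a whole, with correlations of 0.989 to 0.997 between any 2 arrays. The hepatocyte markers fitted the labelled tissue: 9 of 9 measured markers passed the limit, and Alb, which encodes albumin, ranged from 14.93 to 15.02. The dimmest of them was Ass1, with means of 6.93 in controls and 7.40 with penicillin. Some arrays stood apart. Controls 1, 3 and 5 had high immediate early genes, the rapid-response transcription factors such as Fos, whose level was 11.29 to 11.85 in these 3 arrays and 5.84 to 7.46 in the other 9. Control 6 and penicillin 1, 5 and 6 had a high level of the clock output gene Dbp, 11.96 to 12.05, against 6.44 to 10.68 on the other arrays. Values of the members without these arrays are given below where they moved by over 1.5 times.

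Over the family, Fabp2 was the member whose groups separated, with higher levels in penicillin livers. Fabp1 differed by less than 0.1 on the log2 scale, and Fabp5 varied several-fold from mouse to mouse within both groups. With limma and Benjamini-Hochberg adjustment over 11899 genes, 0 of the 5 tested members passed an adjusted p of 0.05. The background was the same, 0% of all genes, with 950 (7.98%) under an unadjusted p of 0.05, split into 4.33% higher and 3.66% lower with penicillin, and a smallest adjusted p of 0.265. Of the 5 tested members, 1 (Fabp2) was under an unadjusted p of 0.05. Of the 5 tested members, 1 had groups that did not overlap, against 0.412% of all genes.

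**Figure D1:**
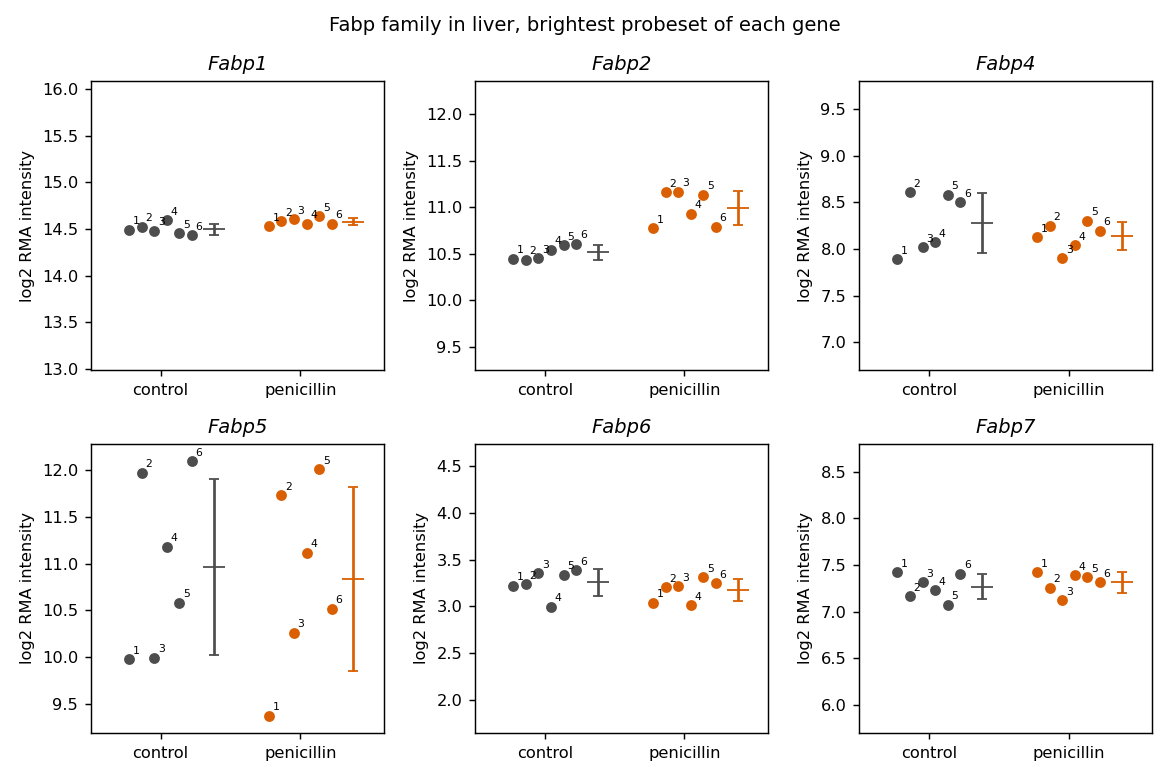
Level (log2 intensity, vertical axis) of each family member on every array, with control and penicillin arrays side by side; each point is 1 mouse and each bar a group mean. Fabp2 is the panel in which the 6 penicillin points (10.77 to 11.17) lie above the 6 control points (10.44 to 10.61); the Fabp5 points spread from 9.37 to 12.10.

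Fabp1 was close to the top of the measured range. Its levels in controls 1 to 6 were 14.49, 14.52, 14.48, 14.59, 14.45 and 14.43, and in penicillin 1 to 6 they were 14.53, 14.58, 14.61, 14.56, 14.64 and 14.55. The penicillin arrays were mostly higher, but control 4 lay among them, so the groups overlapped. The means were 14.50 ± 0.06 (SD, n = 6) in controls and 14.58 ± 0.04 (SD, n = 6) with penicillin. The difference of 0.08 (SE 0.05, 95% interval -0.02 to 0.18), or 1.06-fold, did not pass (limma, adjusted p = 0.696). Across the 12 arrays the gene spanned 0.21, and 11591 of 11899 genes spanned more. The level was 0.46 to 0.72 below the brightest probeset of the same array, and whether this compressed the range was not tested. A dimmer Fabp1 probeset gave 14.20 ± 0.16 (SD, n = 6) and 14.30 ± 0.08 (SD, n = 6), a difference of 0.10. The 2 Fabp1 probesets correlated at 0.43 across the 12 arrays.

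Fabp2 was far above the median of all probesets (4.73) in every liver, although it is named for the intestine. Its control levels were 10.45, 10.44, 10.45, 10.55, 10.59 and 10.61, and its penicillin levels 10.77, 11.16, 11.17, 10.93, 11.14 and 10.79. Every penicillin array was above every control array, and penicillin 2, 3 and 5 were the highest. In intensity units this was 1388 to 1563 in controls and 1751 to 2297 with penicillin. The means were 10.51 ± 0.08 (SD, n = 6) and 10.99 ± 0.19 (SD, n = 6). The difference was 0.48 (SE 0.08, 95% interval 0.30 to 0.65), or 1.39-fold. It ranked 2 by p among all genes (unadjusted p = 5.61e-05) and did not pass the adjusted threshold (limma, adjusted p = 0.265). Without controls 1, 3 and 5 the difference was 0.46 (limma, unadjusted p = 0.00185, adjusted 0.996). Without control 6 and penicillin 1, 5 and 6 it was 0.59 (limma, adjusted p = 0.399).

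Fabp2 is itself a gene of enterocytes, and the other markers of those cells were mostly dim. Of 17 markers of enterocytes and gut epithelium on the array, 13 were below the limit, among them the defining genes Vil1, Cdx2, Lct, Alpi and Cdh17. The files hold no detection calls, so these cannot be told from background. Of the 4 tested, 1 was higher and 3 were lower with penicillin, and none passed. The summed intensity of all 17 markers, the 13 below the limit included, was 460 to 883 in controls and 423 to 560 with penicillin. Tff3, 1 of the 4 tested, weighs on the top of the control range. It was 8.86 on control 6 and 4.91 to 6.78 on the other arrays. Within groups, the mean of the 4 tested markers correlated with Fabp2 at -0.01 over the 12 arrays. For some other cell types the summed marker intensity did not overlap between groups. The 8 neutrophil and monocyte markers on the array (5 tested, 4 lower) summed to 299 to 817 intensity units in controls and 221 to 273 with penicillin. Of the 5 tested, S100a8 (-1.94) and S100a9 (-1.63) did not overlap between groups. The others overlapped and differed little: Csf3r by -0.24, Cxcr2 by -0.03 and Ccr2 by 0.08. This sum thus follows S100a8 and S100a9 more than the list as a whole. The 8 cholangiocyte markers on the array (5 tested, 5 lower) summed to 262 to 297 and 191 to 260. Each of these 2 sums includes 3 markers below the limit, and the cholangiocyte ranges nearly touch. The means of the tested markers correlated with Fabp2 within groups at 0.16 and 0.04. The part of these cells in the Fabp2 difference was not tested.

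Fabp4, the adipocyte and macrophage form, was measured at a middle level. Its control levels were 7.89, 8.61, 8.02, 8.07, 8.58 and 8.50, and its penicillin levels 8.13, 8.25, 7.90, 8.04, 8.30 and 8.20. Controls 2, 5 and 6 were higher than every penicillin array, and the other controls lay among or below them. The means were 8.28 ± 0.32 (SD, n = 6) and 8.14 ± 0.15 (SD, n = 6), a difference of -0.14 (SE 0.13, 95% interval -0.43 to 0.14), which did not pass (limma, adjusted p = 0.845). It was -0.22 without control 1, -0.07 without control 2, -0.08 without control 5 and -0.26 without controls 1, 3 and 5. A second Fabp4 probeset followed the first closely (r = 0.92, 12 arrays) and differed by -0.03. The other 2 Fabp4 probesets were below the limit.

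Fabp5, the epidermal and macrophage form, was the most variable member. Its control levels were 9.97, 11.98, 9.99, 11.18, 10.58 and 12.10, and its penicillin levels 9.37, 11.73, 10.26, 11.12, 12.01 and 10.52. Each group held both low and high arrays. The span of 2.73, or 6.63-fold in intensity, was exceeded by 84 of 11899 genes, against a median span of 0.52 over all genes. A second Fabp5 probeset gave the same order almost exactly (r = 0.996, rho = 0.99, 12 arrays). The group means were 10.97 ± 0.94 (SD, n = 6) and 10.83 ± 0.98 (SD, n = 6), a difference of -0.13 (SE 0.49, 95% interval -1.19 to 0.92; limma, adjusted p = 0.968). The difference was 0.07 without control 2, 0.09 without control 6 and 0.16 without penicillin 1. It was -0.92 without controls 1, 3 and 5, which held the 3 lowest control levels, -0.94 with the immediate early score as a covariate, and 0.29 without control 6 and penicillin 1, 5 and 6. The sign thus depended on which mice were counted.

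**Figure D2:**
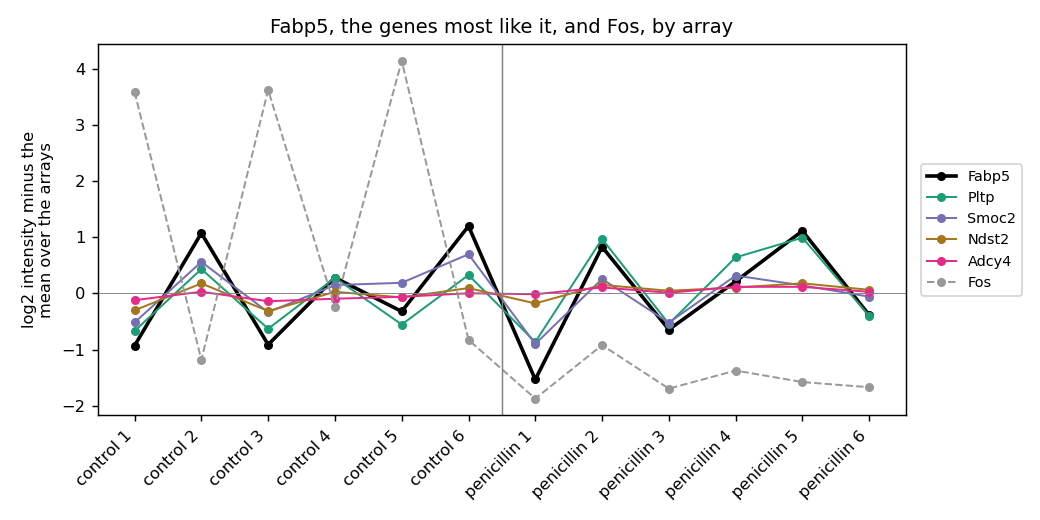
Level minus the gene's mean over the arrays (log2, vertical axis) for Fabp5, the 4 genes most like it and Fos on each of the 12 arrays; 1 line per gene, controls left of the grey line and penicillin right. Fabp5 and Pltp move together across both groups (r = 0.94), and Fos is high in controls 1, 3 and 5.

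Fabp7 and Fabp6, the brain and ileal forms, showed no group difference past the threshold. Fabp7 levels were 7.42, 7.17, 7.31, 7.23, 7.08 and 7.41 in controls and 7.43, 7.26, 7.12, 7.39, 7.37 and 7.32 with penicillin. The groups overlapped over nearly their whole range. The difference was 0.05 (SE 0.07, 95% interval -0.11 to 0.21; limma, adjusted p = 0.921), and it was 0.01 without control 5 and 0.02 without control 6 and penicillin 1, 5 and 6. Fabp6 lay at 3.00 to 3.39 in controls and 3.01 to 3.31 with penicillin, or 8 to 10 intensity units, near the bottom of the array. In the fit without a limit on low values, over 18193 genes, it differed by -0.08 (SE 0.08, 95% interval -0.25 to 0.08; limma, adjusted p = 0.900), and by -0.03 without controls 1, 3 and 5. Of the relatives outside the 6 members, 8 of 9 listed genes were on the array and 2 were tested. Pmp2, the peripheral myelin lipid carrier, differed by -0.05 and Fabp3, the heart and muscle form, by 0.04.

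**Figure D3:**
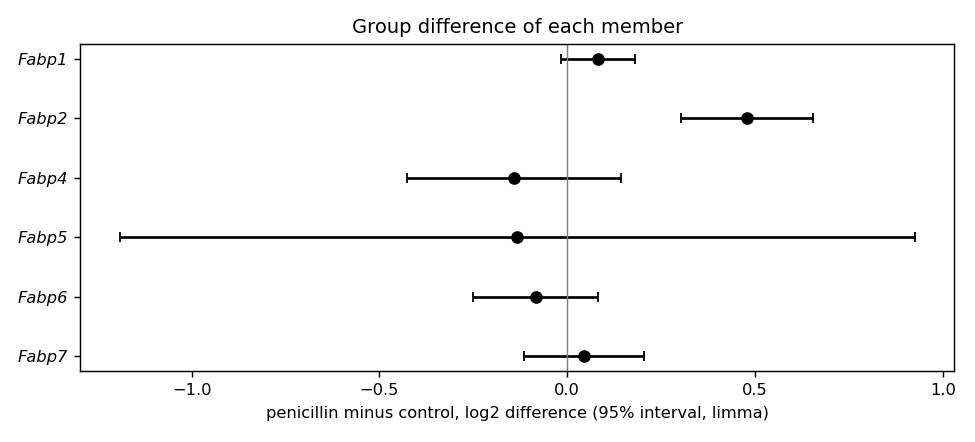
Penicillin minus control difference (log2, horizontal axis) of each member with its 95% interval from limma, 6 arrays per group. The interval of Fabp2 (0.30 to 0.65) lies above 0; those of the other 5 members include 0, and that of Fabp5 is the widest (-1.19 to 0.92).

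The liver and intestinal forms were then compared directly, by subtracting the level of one member from that of the other on each array and testing whether this changed between groups. All 6 pairs of Fabp1, Fabp2, Fabp4 and Fabp5 were computed, with an exact two-sided permutation test that enumerates every way to split the arrays 6 against 6 and Benjamini-Hochberg adjustment over the 6 pairs. Fabp2 minus Fabp1 was -3.98 ± 0.11 (SD, n = 6) in controls and -3.59 ± 0.15 (SD, n = 6) with penicillin. The change of 0.40 had an exact p of 0.00216, the smallest this design allows (adjusted exact p = 0.00649), and the 2 groups did not overlap. Fabp4 minus Fabp2 changed by -0.62, also without overlap (exact permutation p = 0.00216, adjusted 0.00649). The separation of Fabp2 was known from earlier results, so these 2 tests are not independent support for it. The other 4 pairs did not pass. Fabp4 minus Fabp1 changed by -0.22 (adjusted exact p = 0.329), Fabp5 minus Fabp1 by -0.22 (adjusted exact p = 0.831) and Fabp5 minus Fabp2 by -0.61 (adjusted exact p = 0.383). For Fabp5 minus Fabp4 the value was 0.01 (adjusted exact p = 0.998). Pairs with Fabp5 moved with the arrays counted. Without controls 1, 3 and 5, Fabp5 minus Fabp1 was -0.98, Fabp5 minus Fabp2 was -1.38 (exact permutation p = 0.0476, adjusted 0.0952) and Fabp5 minus Fabp4 was -0.66. Without control 6 and penicillin 1, 5 and 6 they were 0.22, -0.30 and 0.46. Fabp5 minus Fabp2 was -0.39 without control 2, -0.40 without control 6 and -0.36 without penicillin 1. The sign of Fabp5 minus Fabp1 turned without control 6 (0.02) and without penicillin 1 (0.07), and that of Fabp5 minus Fabp4 without control 1, 3 or 5 or penicillin 2, 4 or 5 (-0.19 to -0.07). Without control 6 and penicillin 1, 5 and 6, Fabp2 minus Fabp1 changed by 0.52 and Fabp4 minus Fabp2 by -0.76. Both then had an exact p of 0.0179, the smallest that 5 against 3 arrays allow, and an adjusted exact p of 0.0536.

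Members were also followed from mouse to mouse, after each group's mean was removed. Over the 12 arrays, Fabp4 and Fabp5 had the highest correlation of the 6 pairs. Pearson's r was 0.61 (permutation p = 0.0488, adjusted 0.293) and Spearman's rho 0.66 (permutation p = 0.0296, adjusted 0.177). It was 0.71 within controls, 0.55 within penicillin arrays and 0.46 without the 2 arrays farthest from the median. Fabp2 and Fabp5 had r = 0.53 and rho = 0.40 (permutation p = 0.102 and 0.238, adjusted 0.306 and 0.577). Fabp1 and Fabp2 had r = 0.34 and rho = 0.31 (permutation p = 0.231 and 0.311, adjusted 0.462 and 0.577), with r = -0.32 within controls and 0.85 within penicillin arrays. No pair passed after adjustment, and the difference between the within-group values was not tested.

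The genes whose levels followed each member from mouse to mouse were listed next. For every tested member, Pearson's r to each of the other 11898 tested genes was taken over the 12 arrays, with group means removed. These values describe the arrays and carry no test, since genes of 1 array share its tissue piece and its processing. The genes most like Fabp1 were Rngtt (r = 0.95), which caps messenger RNA, Cyp3a11 (0.92), the main drug-metabolising cytochrome of its subfamily, Mkln1 (0.91) and Dus1l (0.90). Of 34 PPAR-alpha targets other than the Fabp genes, 10 (29.4%) had r above 0.7 to Fabp1, against 1.98% of all genes, and their median r was 0.57. They included the peroxisomal enzymes Acaa1b (0.85) and Ehhadh (0.84), the mitochondrial acylcarnitine carrier Slc25a20 (0.81) and the fatty acid hydroxylase Cyp4a14 (0.81). To the 9 hepatocyte markers, Fabp1 had a median r of -0.48, with 0 above 0.7 and 1 (Pck1, -0.76) below -0.7. All these values rest on the brighter Fabp1 probeset, which spanned 0.21 and correlated at only 0.43 with the dimmer one. Likeness to the dimmer probeset was not computed.

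For Fabp2, 0.538% of all genes had r above 0.7. Of the same 34 PPAR-alpha targets, 0 did, which is near that background, and their median r was 0.20. Decr1 (0.70) and Vnn1 (0.69) of this list lay just below 0.7. Of 9 PPAR-gamma and fat storage genes, 4 (44.4%) did: Fitm1 (r = 0.77), which helps form lipid droplets, Pparg (0.74), the receptor itself, the fatty acid transporter Cd36 (0.71) and the monoacylglycerol acyltransferase Mogat1 (0.70, just above the limit). The median of the list was 0.29. Pparg was not particular to Fabp2, with r = 0.73 to Fabp1 and 0.68 to Fabp5. For Fabp1, 1 of the 9 genes (11.1%) was above 0.7, with a median of 0.23. The genes most like Fabp2 were Aldh1a7 (0.86), Tlcd2 (0.85), Trim65 (0.83) and Plpp5 (0.83). In this order, r was 0.73, 0.65, 0.36 and 0.96 within controls. It was 0.91, 0.90, 0.93 and 0.82 within penicillin arrays, where Fabp2 varied more. Fitm1 was 9.84 to 10.37 in controls and 10.45 to 11.29 with penicillin, and like Fabp2 its groups did not overlap.

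Among the lists, Fabp4 had its highest median r to macrophage markers. Of 16 markers of Kupffer cells, the resident macrophages of liver, 7 (43.8%) had r above 0.7 to Fabp4, against 1.87% of all genes, with a median of 0.68. They included the growth factor receptor Csf1r (0.81) and the complement genes C1qa (0.81) and C1qb (0.79). Of 5 tested adipocyte markers, 0 did, and the defining genes Adipoq and Lep were below the limit. The mean of the Kupffer markers correlated with Fabp4 at r = 0.76 (permutation p = 0.0149, adjusted 0.294 over 48 relations) and rho = 0.75 (p = 0.0104, adjusted 0.250). The value was 0.77 without the 2 farthest arrays, 0.76 within controls and 0.77 within penicillin arrays. Markers of other cell types had similar values for Fabp4, and differences between lists were not tested. The mean of 7 lymphocyte markers had r = 0.77 (permutation p = 0.0269, adjusted 0.323) and rho = 0.78 (adjusted permutation p = 0.253), with 0.94 within controls and 0.31 within penicillin arrays. The mean of 11 stellate cell markers had r = 0.64 (permutation p = 0.0183, adjusted 0.294) and rho = 0.64 (adjusted permutation p = 0.253), and 3 of the 11 genes had r above 0.7. No marker list passed after adjustment. The single genes most like Fabp4 were Vamp2, Cul9 and Stoml1 (each 0.92) and Plagl1 (0.89). The Kupffer markers summed to 11226 to 16302 intensity units in controls and 10492 to 13399 with penicillin, and 13 of 16 were lower with penicillin, none past the threshold. Their median difference was -0.07, and -0.20 with 0 of 16 higher without controls 1, 3 and 5. In a piece of liver, fewer cells of a type and less RNA per cell cannot be told apart.

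Fabp5 had its highest median r to markers of stellate cells and fibroblasts, the collagen-making cells of liver. Of 11 such markers, 6 (54.5%) had r above 0.7 to Fabp5, against 6.34% of all genes, with a median of 0.74. They included the collagens Col1a2 (0.88) and Col3a1 (0.86) and the growth factor receptor Pdgfrb (0.78). The remaining stellate markers were lower, among them Acta2 (0.24), Des (0.08) and Rgs5 (-0.47). The mean of these markers correlated with Fabp5 at r = 0.82 (permutation p = 0.0030, adjusted 0.146) and rho = 0.84 (adjusted permutation p = 0.0902). The value was 0.74 without the 2 farthest arrays. Other cell types also followed Fabp5. The mean of 15 endothelial markers had r = 0.62 (permutation p = 0.0389, adjusted 0.354), and 1 of them, Lyve1 (0.89), was above 0.7. The mean of 16 Kupffer markers had r = 0.61 (permutation p = 0.0442, adjusted 0.354). The mean of 18 immediate early genes went the other way, with r = -0.58 (permutation p = 0.0746, adjusted 0.512). Its r was -0.89 within controls and 0.42 within penicillin arrays. No list passed after adjustment, and differences between lists were not tested. The 13 stellate markers on the array, 2 of them below the limit, summed to 5977 to 8851 intensity units in controls and 5045 to 7609 with penicillin. Of the 11 tested, 10 were lower with penicillin, none past the threshold. Cd36 (0.82) and the acyl-CoA binding protein Dbi (0.78) also followed Fabp5. The single genes most like it were Pltp (0.94), the plasma phospholipid transfer protein, Smoc2 (0.92), an extracellular matrix protein, Ndst2 (0.92) and Adcy4 (0.92). Pltp ranged from 8.66 on penicillin 1, the lowest Fabp5 array, to 10.52 on penicillin 5, the highest penicillin array for Fabp5.

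Fabp7 had no list with more than 1 gene above 0.7. The genes most like it were Fam20b (0.92), Zranb3 (0.92), D5Ertd579e (0.89) and Hs6st1 (0.89). Its highest list median was that of core clock and output genes (0.53, 16 genes), of which Bhlhe40 (0.80) was above 0.7. Fabp1 had a median of -0.34 to the same clock genes. The list mixes genes that peak at opposite times of day, so these medians do not measure the time of the clock.

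**Figure D4:**
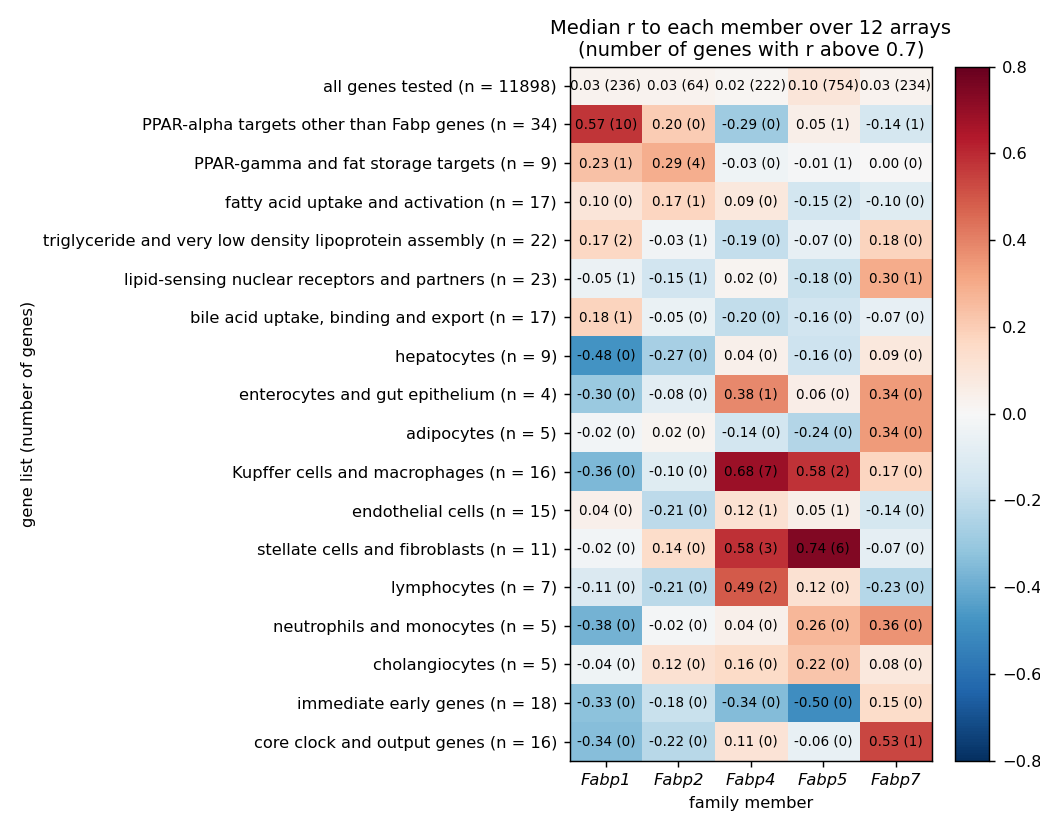
Median Pearson r of the genes of each list to each tested member over 12 arrays, group means removed (colour, -0.8 to 0.8); in each cell the number in parentheses counts genes with r above 0.7, and the top row gives all genes. The 5 highest medians are stellate cells for Fabp5 (0.74) and Fabp4 (0.58), Kupffer cells for Fabp4 (0.68) and Fabp5 (0.58), and PPAR-alpha targets for Fabp1 (0.57).

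The partners of the family in lipid handling were compared between groups through lists of related genes. In all lists, 0 genes passed the adjusted threshold, and their counts are set beside all 11899 genes, of which 6278 were higher with penicillin and 5621 lower, with a median of 0.01. Of 34 tested PPAR-alpha targets, 32 were higher and 2 lower, with a median difference of 0.20, and 15 had an unadjusted limma p under 0.05 in the higher direction, against 4.33% of all genes. Aldh3a2, which oxidises fatty aldehydes, differed by 0.48 (adjusted p = 0.334), the dienoyl-CoA isomerase Ech1 by 0.26 (adjusted p = 0.430) and the enoyl-CoA isomerase Eci1 by 0.29 (adjusted p = 0.434). Cpt1a, which commits fatty acids to mitochondria, differed by -0.02 (adjusted p = 0.985). Cyp4a10 was not analysed here. Without controls 1, 3 and 5 the median of this list was 0.15, with 31 of 34 higher.

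Of 9 tested PPAR-gamma and fat storage genes, 7 were higher and 2 lower, with a median of 0.30. Fitm1 differed by 0.61 (limma, adjusted p = 0.318), Pparg by 0.63 (adjusted p = 0.430) and Fitm2 by 0.30 (adjusted p = 0.570). The 2 lower genes were Lpl, lipoprotein lipase (-0.63), and Pck1, a gluconeogenic enzyme (-0.19). Without controls 1, 3 and 5 the list median was 0.23.

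Uptake and activation of fatty acids showed little common shift. Of 17 tested genes, 13 were higher and 4 lower, with a median of 0.04. The medium-chain acyl-CoA synthetase Acsm3 differed by 0.22 (limma, adjusted p = 0.316) without overlap between groups, Acbd3 by -0.20 (adjusted p = 0.546) and Acsm5 by 0.19 (adjusted p = 0.567). Cd36 differed by 0.48 (adjusted p = 0.570). Of 22 genes of triglyceride and lipoprotein assembly, 13 were higher, with a median of 0.03; Sar1b differed by 0.16, Mogat1 by 0.58 and Gpam by 0.25 (adjusted p = 0.546, 0.571 and 0.585).

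Receptors and bile acid genes completed the set. Of 23 lipid-sensing receptors and partners, 14 were higher, with a median of 0.06. The transcription factor Gata6 differed by -0.58 (limma, adjusted p = 0.276) and Cebpa by 0.26 (adjusted p = 0.571). Ppara differed by 0.13, Hnf4a by -0.11 and Rxra by 0.06. Of 17 genes of bile acid handling, the setting in which Fabp6 is known, 9 were higher and 8 lower, with a median of 0.01. The export pump Abcc3 differed by 0.28 (adjusted p = 0.276) without overlap, the sterol hydroxylase Cyp8b1 by 0.35 (adjusted p = 0.735) and the ileal-type bile acid transporter Slc10a2 by -0.41 (adjusted p = 0.755).

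**Figure D5:**
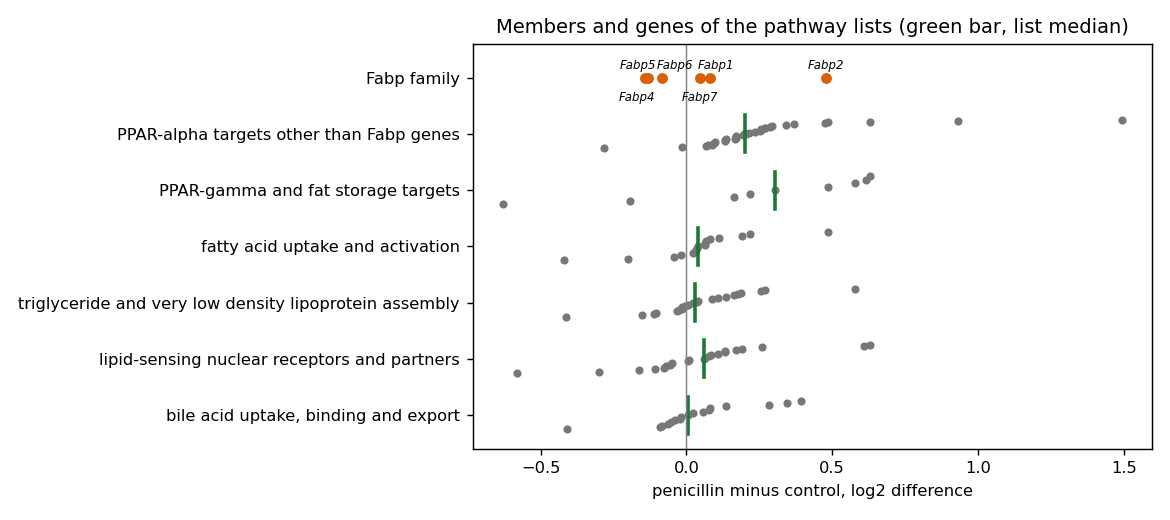
Penicillin minus control difference (log2, horizontal axis) of the 6 members (orange) and of each tested gene of 6 pathway lists (grey); the green bar is the list median. Fabp2 (0.48) lies among the higher genes of the PPAR-alpha and PPAR-gamma lists, whose medians are 0.20 and 0.30; the other medians lie between 0.01 and 0.06.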

How the data were processed

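Liver RNA of 12 mice was measured on Affymetrix arrays after labelling from the 3-prime end, per the labels' protocols. The authors deposited 1 table of probeset intensities, made with RMA per the submitters' processing notes. No source used here gives the version or settings. RMA makes the distributions of arrays alike, so a shift shared by most genes would be removed. The deposited intensity values were on a linear scale (4.92 to 36550), and log2 was taken here, with no pseudocount, as planned for that case. The array number limits the precision.

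Of 45101 probesets, 64 were controls, 34945 had 1 gene in the platform annotation and 932 had several, which named no gene. Symbols were updated by gene identifier through RefSeq (GRCm38.p6), where 18032 were found and 162 were not. Genes were fitted with limma 3.58.1 in R 4.3.3 (group as the only term, two-sided), adjusted over all 11899 genes at 0.05. Permutation tests used Python 3.11.15 and scipy 1.17.1, exact for pairs of members and with 100000 resamples within groups for correlations. Scripts were tested on simulated data. Named genes were all members, the 4 genes most correlated with each tested member, the 3 genes with the smallest p of each pathway list, and Cpt1a and Cyp4a10. Lpl, Pck1, Ppara, Hnf4a, Rxra, Cd36, Mogat1, Fos, Dbp, Bhlhe40 and the list genes named by their correlation were picked with their values in view. So were S100a8, S100a9, Csf3r, Cxcr2, Ccr2, Tff3, Ass1 and the second Fabp3 probeset. The members and lists were chosen with earlier results of these data known. Alternatives covered the filter, normalization, replicate block, array weights, variance prior, choice of probeset, threshold and each array left out. Fits without controls 1, 3 and 5, without control 6 and penicillin 1, 5 and 6, and with array scores as covariates were added after seeing the data.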

Additional observations from a re-analysis of the deposited data

How the results depend on the processing

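Under 26 alternatives for the count of genes past the threshold, limma called 0 genes each time, with 488 to 1407 under an unadjusted p of 0.05 and smallest adjusted p from 0.0732 to 0.996. Both the 488 genes and the 0.996 came without controls 1, 3 and 5, against 950 genes and 0.265 with all arrays. Over 25 alternatives each, Fabp2 differed by 0.44 to 0.59 (adjusted p 0.117 to 0.996), Fabp1 by 0.06 to 0.10, Fabp4 by -0.29 to -0.07, Fabp6 by -0.14 to -0.03 and Fabp7 by 0.01 to 0.08, with no change of sign or call. Fabp5 changed sign: it was 0.19 with array weights, 0.29 without control 6 and penicillin 1, 5 and 6 (chosen after seeing the data), and -0.37 to 0.16 with each array left out. Fabp5 minus Fabp4 was -0.059 with the mean of probesets, -0.0060 with repeated quantile normalization, -0.66 without controls 1, 3 and 5, and -0.19 to 0.30 with each array left out. Fabp5 minus Fabp1 was 0.22 without control 6 and penicillin 1, 5 and 6, and -0.44 to 0.068 with each array left out. The Fabp2 and Fabp4 correlation was -0.19 on raw values and -0.081 without controls 1, 3 and 5. The cause was not tested in any of these.

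Whether the replicate numbers pair the mice was not settled here. Same-numbered arrays correlated at -0.26 to 0.39, over 0.1 in 4 of 6 pairs, and 3 of 6 controls matched their own number best. With a replicate block, limma called 0 genes and Fabp2 had an adjusted p of 0.307. In sign-flip tests with the block, Fabp2 minus Fabp1 (0.40) and Fabp4 minus Fabp2 (-0.62) had an adjusted exact p of 0.0938, the smallest that 6 pairs allow being 0.0312 before adjustment. Without control 6 and penicillin 1, 5 and 6 they were 0.52 and -0.76, with an exact p of 0.0179, the smallest that 5 against 3 arrays allow, and 0.0536 after adjustment. Limits: signal over background is not in the files, so Fabp6 and other dim genes have no usable level.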

Other observations

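A second probeset of Fabp3, the heart and muscle form, stood at 7.30 on the log2 scale (158 intensity units) on control 6, against 4.29 to 5.05 (19.6 to 33.1 units) on the other 11 arrays. The brighter Fabp3 probeset, which represents the gene above, was at 5.34 on control 6 and 5.21 to 5.51 over the 12 arrays. Control 6 also had the highest level of the gut trefoil factor Tff3 (8.86, against 4.91 to 6.78 on the other arrays) and of the neutrophil genes S100a8 (8.06) and S100a9 (8.44).

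S100a8 and S100a9, subunits of calprotectin, differed by -1.94 and -1.63 between penicillin and control. All 6 control arrays lay above all 6 penicillin arrays for both genes, and the same separation held for 0.151% of all genes in that direction. Neutrophil and monocyte markers had r = 0.16 to Fabp2 over the 12 arrays with group means removed, and r = 0.32 to Fabp5.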
